A study of Drosophila melanogaster with 21 samples.

Results

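The Nimrod family genes eater, drpr, NimA, NimB1, NimB2, NimB4, NimB5, NimC1, NimC2 and NimC4 were followed across an RNA-seq experiment in Drosophila S2 cells. The methods give the line used for RNA interference as S2[Cas9], an S2 line that stably expresses the Cas9 nuclease, while the labels name only S2 cells. The 10 genes were taken from a list of family members by symbol and were 10 of 17737 genes listed in each of the 2 tables of expression values. S2 is a hemocyte-derived cell line. All cells received double-stranded RNA and were harvested 4 days after transfection. In the first table, 3 libraries of control cells (dsEGFP, a non-targeting RNA) stand beside 3 libraries of cells depleted of all isoforms of the GATA cofactor U-shaped (dsUsh) and 3 libraries of cells depleted of dMi-2, the ATPase of the NuRD chromatin remodelling complex (dsMi-2). The Ush-B table holds a separate experiment with 4 libraries of cells in which only the NuRD-binding isoform Ush-B was targeted (dsUsh-B) and 4 libraries of their own dsEGFP control. Bulk RNA of this kind cannot tell fewer cells that express a gene from less RNA per cell.

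Nimrod proteins carry EGF-like repeats of a family-specific type and serve the uptake of bacteria and of dying cells by hemocytes. The family comprises transmembrane receptors, namely Eater, Draper, NimA and the NimC proteins, and the B group, whose members lack a transmembrane domain and are secreted. Eater and NimC1 are receptors for bacteria on plasmatocytes, the macrophage-like hemocytes, and Eater also keeps hemocytes attached to tissue. Draper (drpr), the orthologue of the nematode CED-1, and NimC4, also called Simu, act in the engulfment of apoptotic cells, where NimC4 recognises the corpse and works upstream of Draper.

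The values are normalised counts, that is, reads on a gene divided by a size factor of the library. Reads on genes numbered 21366051 to 26101822 per library of the first table. The Ush-B libraries were deeper, with 46181614 to 59387417 reads. Both tables were normalised separately, so levels were compared only within a table, and levels of different genes were not compared because they were not scaled by gene length. The RNA of ush itself was only moderately lower after dsUsh. It stood at 5276, 4789 and 3929 normalised counts in dsEGFP libraries 1 to 3 and at 4089, 3810 and 3341 in dsUsh libraries 1 to 3, a log2 fold change of -0.31 ± 0.13 (SE) with limma's adjusted p = 0.098. With the replicate number as a block the adjusted p was 0.00702. At the protein level, the paper reports by Western blot that Ush signals were lost after this RNA interference. It also reports efficient depletion of the Ush-B protein by RNA against that isoform. The expression values used here do not measure protein. Mi-2 RNA fell from a mean of 4979 ± 618 to 1281 ± 248 (SD, n = 3 each) after dsMi-2, with an adjusted p of 6.93e-05 by limma. The counts are per gene and cannot show the Ush-B isoform, and total ush RNA averaged 9015 in the dsEGFP and 8350 in the dsUsh-B libraries. Of the genes listed as plasmatocyte markers, srp, crq and Ppn were read at 1001 or more normalised counts in every library of both tables. Hml lay between 4.55 and 49.9 and He between 0 and 50.2.

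In control cells reads fell very unevenly on the genes of the family, in numbers not scaled by gene length. drpr, NimC4 and eater had at least 92 reads in every dsEGFP library of the first table. They averaged 743, 23.7 and 7.71 CPM (recovered reads scaled to the library total) in these libraries. NimB2, NimB1 and NimB5 were near the limit of detection, with 2 to 15, 1 to 5 and 1 to 4 reads per dsEGFP library. NimA, NimB4, NimC1 and NimC2 had 0 to 2 reads in each of these libraries. A count of 3 reads, the upper limit that a count of 0 allows, corresponds to 0.115 to 0.14 CPM in the first table. In the deeper Ush-B libraries it is 0.0505 to 0.065 CPM. These limits cover counting error only. A minimum mean of 5 normalised counts over the table was required for a test. It was passed by 5 of the 10 genes in the first table (eater, drpr, NimC4, NimB2 and NimB5) and by 4 in the Ush-B table (eater, drpr, NimC4 and NimB2). NimB5 passed in the first table through its level in dsMi-2 libraries.

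Depletion of all Ush isoforms was accompanied by the near loss of eater RNA and by a strong fall of NimC4 RNA, whereas drpr stayed at the control level and NimB2 and NimB5 had higher values. eater was counted at 230, 95.8 and 196 in dsEGFP libraries 1 to 3 and at 4.34, 2.27 and 10.7 in dsUsh libraries 1 to 3. Each dsUsh library lay far below the lowest control, and the 3 dsUsh libraries together held 17 reads on eater against 530 in the controls. The log2 fold change was -4.80 ± 0.50 (SE, n = 3 each), and the adjusted p was 9.48e-05 (limma on log2 of the normalised count plus 1, two-sided, Benjamini-Hochberg over 9132 genes, threshold 0.01). With a pseudocount of 5 in place of 1 the change was -4.04.

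NimC4 stood at 487, 430 and 717 in dsEGFP libraries and at 129, 60.2 and 58.7 in dsUsh libraries. The groups did not overlap, and the spread within dsUsh was carried by library 1, which held the highest of its 3 values. NimC4 had a log2 fold change of -2.77 ± 0.31 (SE) with an adjusted p of 0.000145 by limma. With each of the 9 libraries left out in turn, the change of eater lay between -5.29 and -4.38 and that of NimC4 between -3.14 and -2.55, and both genes passed the threshold in all 9 fits. Across all genes tested, 17.2% were called after dsUsh and 4.84% were called as lower, while the groups did not overlap for 43.4%. The block raised the number of called genes from 1567 to 2601.

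For drpr the dsEGFP libraries gave 16336, 17969 and 16513 and the dsUsh libraries 18681, 15754 and 16017. These values overlapped, and the log2 fold change of -0.01 (95% interval -0.24 to 0.22) had an adjusted p of 0.937 by limma.

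Of the secreted members, NimB2 gave 13.6, 2.08 and 4.27 in dsEGFP and 39.1, 10.2 and 34.1 in dsUsh libraries. Library 2 was lowest in both groups, and the lowest dsUsh value lay below the highest control, so that the groups overlapped. The log2 fold change of 2.02 ± 0.73 (SE) missed the threshold with an adjusted p of 0.0633 by limma. The labels do not state a pairing, but same-numbered libraries of this table deviated together (r = 0.239 to 0.569). Within the numbers NimB2 was 2.88, 4.91 and 8-fold higher after dsUsh. With the replicate number as a block it passed with an adjusted p of 0.00599 by limma, in a fit that called 17.4% of all genes as higher. NimB5, which in the fly adjusts hemocyte numbers and adhesion to the nutritional state, was read at 3.62, 2.08 and 1.07 in dsEGFP and at 9.55, 7.95 and 3.2 in dsUsh libraries. Its log2 fold change of 1.25 ± 0.61 (SE) did not pass, with an adjusted p of 0.158, or of 0.031 with the block, by limma.

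**Figure D1:**
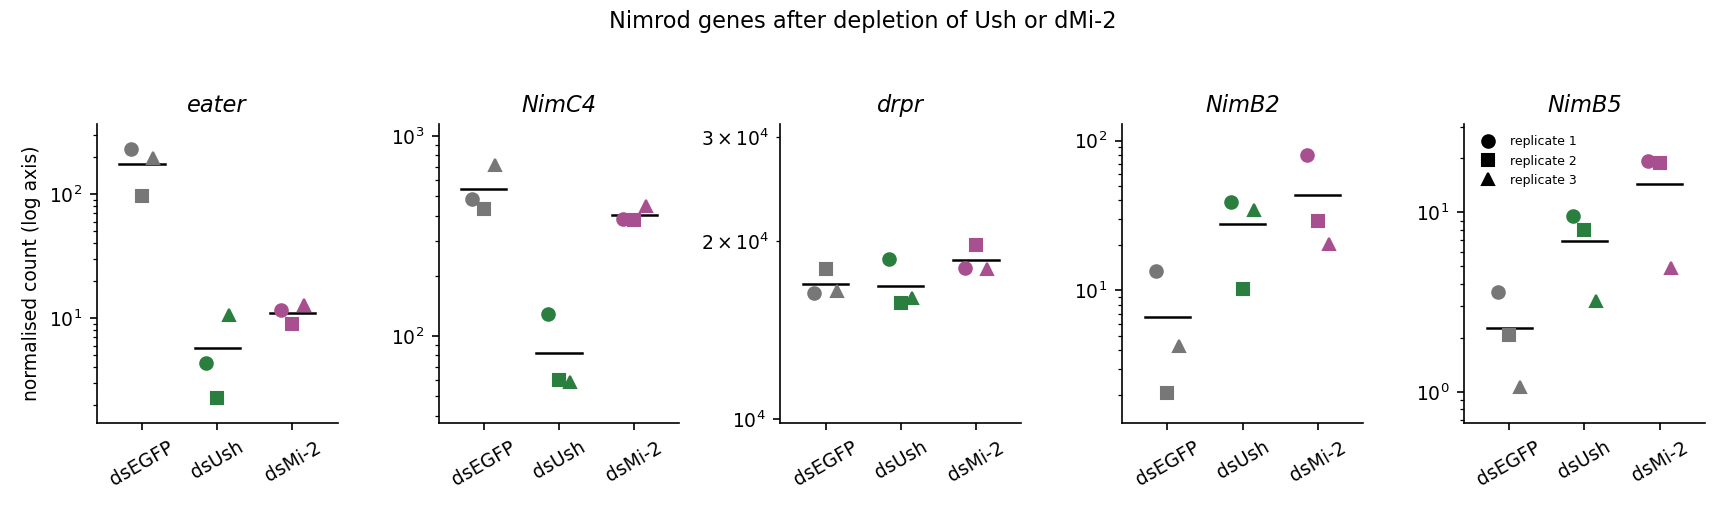
Normalised counts (log axis, own range per panel) of the 5 Nimrod genes tested in the first table, by treatment. Points are libraries with the replicate number as the marker and bars are group means. eater lies at 95.8 to 230 in the 3 dsEGFP libraries and at 2.27 to 12.7 in the 6 depleted libraries, while NimC4 is low only in the 3 dsUsh libraries (58.7 to 129).

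Depletion of dMi-2 was likewise accompanied by a large fall of eater, whereas NimC4 was not called. The dsMi-2 libraries 1 to 3 held eater at 11.6, 8.95 and 12.7, against the same 3 controls at 95.8 to 230. The groups did not overlap, and the 3 dsMi-2 values lay close together. The log2 fold change was -3.77 ± 0.50 (SE) with an adjusted p of 0.00118 by limma. In the 9 fits that left out a library it ranged from -4.15 to -3.53 and always passed. Of all genes tested, 6.29% were called after dsMi-2 and 1.95% were called as lower. The block raised the number of called genes from 574 to 1187. Because dsUsh and dsMi-2 were compared with the same dsEGFP libraries, the falls of eater in both comparisons are not independent of each other.

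NimC4 was counted at 383, 382 and 448 after dsMi-2. The highest of these exceeded the lowest control, and the log2 fold change of -0.40 (95% interval -1.08 to 0.29) had an adjusted p of 0.463 by limma. Within the replicate numbers NimC4 was 0.787, 0.888 and 0.626 times the control, so a modest fall is not excluded. drpr gave 18061, 19743 and 17973, all above the highest control of 17969. The log2 fold change of 0.13 had a 95% interval of -0.10 to 0.37, the adjusted p was 0.46 by limma, and 31.9% of all genes tested had groups that did not overlap.

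NimB2 was at 80.5, 28.8 and 20.5 in the dsMi-2 libraries, and all 3 values exceeded the highest control of 13.6. The difference came to a log2 fold change of 2.60 ± 0.73 (SE), with an adjusted p of 0.0432 by limma, which missed the threshold of 0.01. It passed with the block (adjusted p = 0.00364, limma) and with DESeq2 (adjusted p = 0.00902), but not with edgeR (adjusted p = 0.0558). NimB5 was at 19.4, 18.9 and 4.87, with the lowest dsMi-2 value just above the highest control of 3.62. On the fitted scale it was 4.33-fold higher. NimB5 passed the minimum mean only through these dsMi-2 libraries, so a test of its rise in them would be no support, and the difference is given as a description. The fit with the block called 7.63% of all genes as higher after dsMi-2. Within the replicate numbers NimB5 was 5.36, 9.07 and 4.57-fold higher. These values rest on 1 to 20 reads per library.

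A Release 6 gene table was used for the names and the order of genes. It places the NimA, NimB and NimC genes in 1 stretch of chromosome arm 2L, interspersed with other genes, with eater on 3R and drpr on 3L. In this table NimB1 overlaps NimB2, NimB5 overlaps He, NimC2 overlaps rk, NimC4 lies together with nAChRalpha5, and drpr overlaps CG18171, CG12035 and Oseg4. The use of strand in the counting is not given in the sources used here, so reads of overlapping genes may have been shared or left out. He, which encodes the hemocyte surface protein Hemese, was called as higher after dsUsh, at 19.1, 45.5 and 50.2 against 6.33, 5.21 and 0 in dsEGFP (log2 fold change 3.35 ± 0.71, SE, adjusted p = 0.00656 by limma). After dsMi-2 it was at 27.2, 39.8 and 33.1 (adjusted p = 0.0156 by limma). The part of He reads in the values of NimB5 was not tested. nAChRalpha5 had 3 reads in all 9 libraries of the first table against 3119 on NimC4.

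Members below the test minimum had few reads everywhere. NimB1 had 5, 2 and 1 reads in dsEGFP libraries 1 to 3, 3, 4 and 3 in dsUsh and 14, 5 and 4 in dsMi-2 libraries. Its highest value, like that of its neighbour NimB2, was in dsMi-2 library 1. NimA, a transmembrane member, had 0, 0 and 1 reads in dsEGFP, 3, 0 and 0 in dsUsh and 3, 3 and 6 in dsMi-2 libraries. The dsMi-2 libraries thus held 12 of the 16 NimA reads of the table. NimC1, the other receptor for bacteria, had at most 3 reads in any of the 9 libraries and 7 in all. NimB4, a secreted protein that binds apoptotic corpses, had 5 reads and NimC2 had 4. A difference between the groups was not detectable at this depth for NimC1, NimB4 and NimC2. Of the family genes outside the list, NimB3 had 8 reads and NimC3 had 0 in the 9 libraries.

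**Figure D2:**
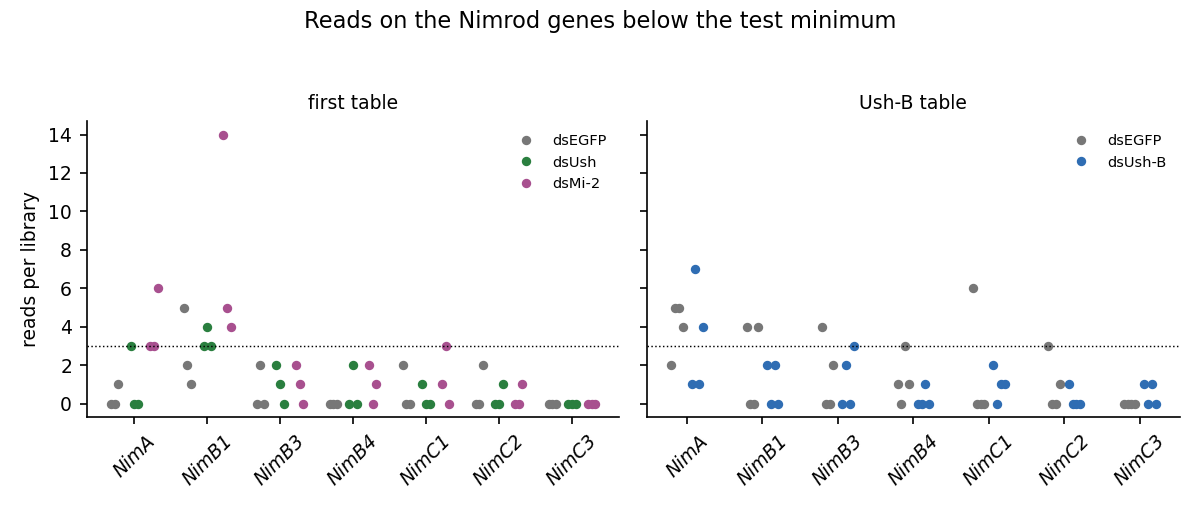
Reads per library (linear axis) of Nimrod genes whose mean was below the minimum for a test in both tables, with NimB3 and NimC3 for comparison. Each point is a library, colours are treatments, and the dotted line marks 3 reads. NimB1 reaches 14 reads in 1 dsMi-2 library, and no gene shown exceeds 7 reads in the Ush-B table.

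Set against each other directly, the depletions differed for NimC4. It averaged 82.8 ± 40.4 after dsUsh and 404 ± 38.0 after dsMi-2 (SD, n = 3 each), with no overlap and a log2 fold change of -2.37 ± 0.31 (SE, adjusted p = 0.000307 by limma). The call held in the 9 fits without a library, between -2.74 and -2.18. eater averaged 5.76 ± 4.38 after dsUsh and 11.1 ± 1.92 after dsMi-2. Its groups overlapped, and the log2 fold change of -1.03 (95% interval -2.14 to 0.09) had an adjusted p of 0.137 by limma. For NimB2 the log2 fold change was -0.57 (95% interval -2.21 to 1.06, adjusted p = 0.572 by limma). For drpr it was -0.15 (95% interval -0.38 to 0.08, adjusted p = 0.292 by limma). NimB5 averaged 6.90 after dsUsh and 14.4 after dsMi-2. It entered the test through the dsMi-2 libraries, so these means are given as a description. Of all genes tested, 22.8% were called between these treatments and 8.31% as lower after dsUsh, and 52.1% had groups without overlap. The block raised the number of called genes from 2082 to 3231.

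**Figure D3:**
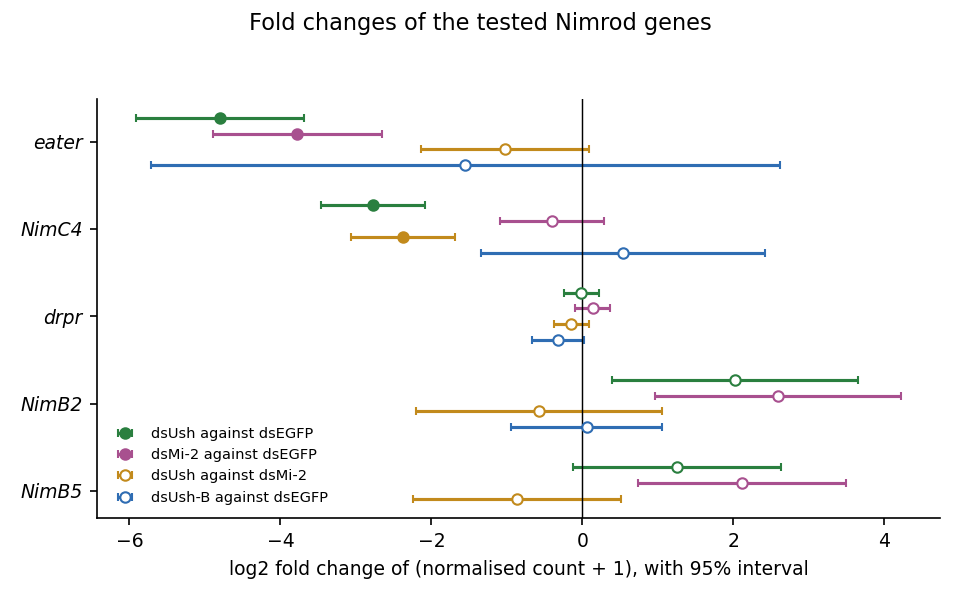
Log2 fold changes of the normalised count plus 1 (points) with 95% intervals from limma (bars) for the Nimrod genes tested, in 4 comparisons shown by colour. Filled points passed the threshold. NimB5 entered the test through its dsMi-2 libraries, so its points in comparisons with dsMi-2 are descriptions. eater is at -4.80 and -3.77 after dsUsh and dsMi-2, NimC4 is called only where dsUsh is compared with dsEGFP or dsMi-2, and the intervals of the Ush-B experiment are widest for eater (-5.72 to 2.62).

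In the Ush-B experiment no Nimrod gene passed the threshold of 0.05, and the levels of eater and NimC4 varied far more between libraries of a treatment than between treatments. eater was read at 588, 452, 43 and 2.7 in dsEGFP libraries 1 to 4 and at 249, 91.2, 2.38 and 6.58 in dsUsh-B libraries 1 to 4. Libraries 1 and 2 were high and libraries 3 and 4 low in both groups. Among the controls alone the highest value was 218 times the lowest, which rests on 3 reads. Of 7454 genes with a mean of at least 50 in these controls, eater held rank 8 in the width of this range, and the median range of a gene was 1.36-fold. In the first table the 3 controls differed by 2.4-fold for eater (rank 350 of 6895).

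The log2 fold change of eater after dsUsh-B was -1.55 with a 95% interval of -5.72 to 2.62 and an adjusted p of 0.893 by limma. It ranged from -3.03 without dsEGFP replicate 4 to -0.54 without dsUsh-B replicate 3. Within libraries 1 and 2 alone, the mean of eater was 170 after dsUsh-B against 520 in the control (log2 fold change -1.77 ± 0.49, SE, adjusted p = 0.999 by limma). Within libraries 3 and 4 it was 4.48 against 22.8 (-1.33 ± 1.29, SE, adjusted p = 0.998 by limma). The labels do not name a batch for these libraries, and both subsets were formed after seeing the data.

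NimC4 showed the same division between the libraries. Its values were 828, 1161, 224 and 223 in dsEGFP and 1846, 1720, 269 and 252 in dsUsh-B libraries 1 to 4. Libraries 1 and 2 of both treatments exceeded libraries 3 and 4, and the treatments overlapped. After dsUsh-B the log2 fold change was 0.54 (95% interval -1.34 to 2.42, adjusted p = 0.921 by limma). Within libraries 1 and 2 it was 0.86 ± 0.20 and within libraries 3 and 4 it was 0.22 ± 0.23 (SE), with adjusted p-values of 0.999 and 0.998 by limma.

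drpr was more even, at 35309, 42752, 49659 and 32247 in dsEGFP and 37570, 29981, 27908 and 31462 in dsUsh-B libraries. Here the highest control was 1.54 times the lowest, and it was library 3, in which NimC4 was low. After dsUsh-B the log2 fold change was -0.32 (95% interval -0.67 to 0.02, adjusted p = 0.722 by limma). NimB2 was at 22.4, 7.96, 5.6 and 8.11 in dsEGFP and at 7.39, 7.84, 13.1 and 13.2 in dsUsh-B libraries, with a log2 fold change of 0.06 (95% interval -0.94 to 1.06, adjusted p = 0.988 by limma) that changed sign in other settings. Of the 4 members tested, 0 had an unadjusted p under 0.05 and 0 were called by limma, edgeR or DESeq2. Among all 9648 genes tested limma called 1 (0.0104%), which was comm2 and is named here after its value was seen, and 684 had an unadjusted p under 0.05. Over all genes, edgeR called 0 and DESeq2, the test that the paper used, called 91. Groups without overlap were seen for 4.02% of all genes and for 0 of the 4 members.

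**Figure D4:**
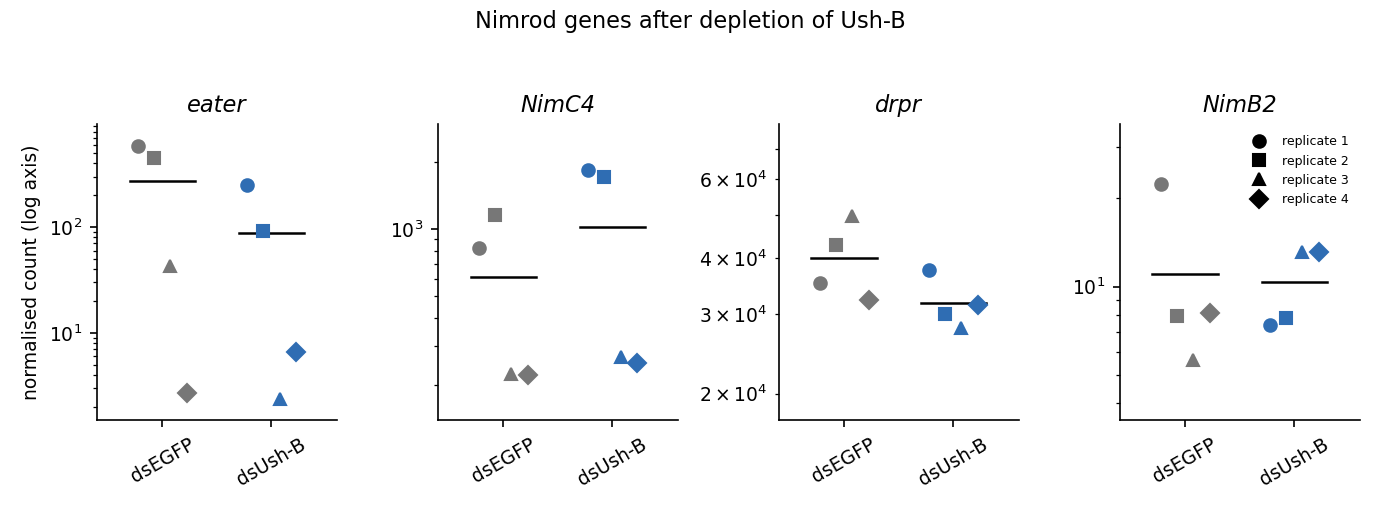
Normalised counts (log axis, own range per panel) of the 4 Nimrod genes tested in the Ush-B table, by treatment. Markers are replicate numbers and bars are group means. eater and NimC4 are high in libraries 1 and 2 and low in libraries 3 and 4 of both treatments, with eater at 588 and 2.7 at the ends of the control range.

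**Figure D5:**
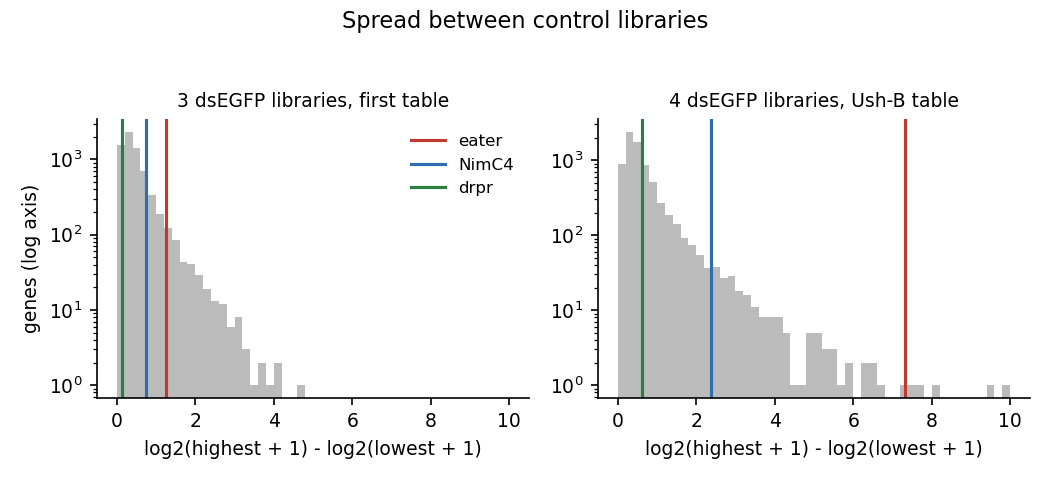
Histograms of the range between the highest and the lowest dsEGFP library (difference of log2 of the normalised count plus 1) over genes with a mean of at least 50 in these libraries, with the number of genes on a log axis. Lines mark 3 Nimrod genes. eater lies at 7.31 in the Ush-B table and at 1.25 in the first table, NimC4 at 2.37 and 0.73, and drpr at 0.62 and 0.14.

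The remaining members stayed low in the Ush-B table despite the greater depth. NimA had 2, 5, 5 and 4 reads in dsEGFP and 1, 7, 1 and 4 in dsUsh-B libraries. NimB5 had 8, 2, 4 and 0 reads and 4, 2, 2 and 4 reads, and NimB1 had 4, 0, 0 and 4 against 2, 0, 2 and 0. The table held 10 reads on NimC1, of which 6 were in dsEGFP library 1, as well as 6 on NimB4 and 5 on NimC2. Of the genes outside the list, NimB3 had 11 reads and NimC3 had 2.

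Of the cell type markers, 2 divided in the same way between libraries 1 and 2 and libraries 3 and 4, and they are named after their values were seen. The plasmatocyte marker Hml was at 49.9, 39.8, 13.1 and 16.2 in dsEGFP and at 42.2, 29.4, 13.1 and 4.7 in dsUsh-B libraries. The lamellocyte marker PPO3 was at 792, 808, 214 and 145 in dsEGFP and at 828, 677, 112 and 204 in dsUsh-B libraries. Of the other genes listed as plasmatocyte markers, srp, Ppn, Pxn and Col4a1 did not divide in this way, and Col4a1 was highest in dsEGFP library 3 (3104). The summed level of all 8 plasmatocyte markers, which is mostly crq RNA, was 40096 to 50417 in the dsEGFP and 32928 to 44962 in the dsUsh-B libraries. Over all 17 libraries, centred within each table, the gene most like eater among 6998 genes with a mean of at least 50 in both tables was MED21 (Pearson's r = 0.89), a subunit of the Mediator complex. It was followed by PIG-A (0.89), RhoGEF3 (0.87), Df31 (0.84) and arr (0.84), which encodes a Wnt co-receptor. NimC4 reached 0.75 and drpr 0.32. These correlations are descriptions, since the libraries share treatments and normalisation, and the ranges of the similar genes were small, as for MED21 with 496 to 549 in dsEGFP and 333 to 397 in dsUsh.

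Among other genes of phagocytosis on 3 lists, limma called 12 as higher and 0 as lower after dsUsh, and with the block it called 2 as lower. Of all genes tested, 12.3% were called as higher. Of 16 other receptors and opsonins listed, 14 were tested, and 6 were called as higher and 0 as lower. Their median log2 fold change was 0.56 against -0.01 over all genes. Itgbn and scb, which encode integrin subunits used in phagocytosis, had log2 fold changes of 3.53 ± 0.62 and 2.15 ± 0.32, and PGRP-LC, a receptor for bacterial peptidoglycan, had 2.03 ± 0.35 (SE). The adjusted p-values of these 3 genes were 0.00225, 0.000796 and 0.00203 by limma. crq encodes the apoptotic cell receptor Croquemort and was read at 27516 to 31194 after dsUsh against 9285 to 13316 in dsEGFP (1.34 ± 0.15, SE, adjusted p = 0.000145 by limma). prtp, which encodes a ligand of Draper and is named for that reason after its value was seen, was called as higher (0.77 ± 0.10, SE, adjusted p = 0.000389 by limma) in libraries where drpr was at the control level. Of 16 tested engulfment signalling genes, which act downstream of such receptors, 2 were called as higher, Rac2 (1.03) and Ced-12 (0.79), and 0 as lower, a share near that over all genes. With the block, 5 were called as higher and 1 as lower, in a fit that called 17.4% of all genes as higher. Of 12 genes of phagosome maturation 4 were called as higher, led by Lamp1 (2.00), Rab14 (0.98) and Vha68-2 (0.69), and 0 as lower, and the block called 7 and 1.

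After dsMi-2, 3 of the 14 tested receptors and opsonins were called as higher and 0 as lower. The list had a median log2 fold change of 0.58 against -0.01 over all genes, of which 4.34% were called as higher. PGRP-LC (3.82), scb (3.61) and pes (0.60) made up the 3. With the block 5 were called as higher and 1 as lower, where it called 7.63% of all genes as higher. Among the signalling genes Ced-12 was called as lower (-0.74 ± 0.12, SE, adjusted p = 0.00279 by limma), whereas after dsUsh it was called as higher. Ced-12 also differed directly between the depletions (1.53 ± 0.12, SE, adjusted p = 1.17e-05 by limma). Of the 12 phagosome genes limma called 0 after dsMi-2, where 4 had an unadjusted p under 0.05, and edgeR called 0, DESeq2 called 2 and the block called 1 as lower. In the Ush-B experiment limma called 0 of 14, 0 of 17 and 0 of 12 genes of the 3 lists, with median log2 fold changes of -0.03, 0.08 and 0.03. Of these genes 3, 2 and 3 had an unadjusted p under 0.05, edgeR called 0 and DESeq2 called 1, in the signalling list. Between dsUsh and dsMi-2, 10 genes of the 3 lists were called as higher after dsUsh, among them crq (0.82) and Lamp1 (1.99), and 3 as lower, namely PGRP-LC (-1.79), scb (-1.47) and pes (-0.38). Of all genes tested, 14.5% were called as higher and 8.31% as lower in this comparison. With the block, 6 genes of the 3 lists were called as lower.

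Cell type markers moved in the same libraries as eater and NimC4. Of the 8 genes listed as plasmatocyte markers, Col4a1, Ppn and vkg were called as lower and He and crq as higher after dsUsh. Col4a1 and vkg were called as higher after dsMi-2. Over all genes tested, 4.84% were called as lower and 12.3% as higher after dsUsh, and 4.34% as higher after dsMi-2. With the block, 5 of the markers were called as lower after dsUsh, with Hml (adjusted p = 0.00447, limma) and srp (adjusted p = 0.00758, limma) added. The block raised the number of all genes called after dsUsh from 1567 to 2601. Hml averaged 26.2 in dsEGFP, 8.28 in dsUsh and 8.47 in dsMi-2 libraries. It missed the threshold in both depletions in the main fit (adjusted p = 0.0191 and 0.044 by limma), on 4 to 16 reads per depleted library. Its lower values were in the same libraries as those of eater, while the markers of this list called as higher went the other way. The list of plasmatocyte markers is not particular to this cell type, since the paper links Serpent (srp) to hemocyte progenitors. The median log2 fold change of the 8 listed markers was -1.18 after dsUsh and 0.39 after dsMi-2. Their summed level is mostly crq RNA and does not describe the list. This sum was 18885 to 24301 in dsEGFP, 32188 to 35082 in dsUsh and 29665 to 31680 in dsMi-2 libraries, and 0 of the 8 were at 0 in a whole group. The 3 lamellocyte markers summed to 423 to 514, 1150 to 1728 and 945 to 1131. ItgaPS4 was called as higher in both depletions and stood at 615 to 1068 in dsUsh against 36.5 to 54.4 in dsEGFP. PPO3 was called in neither depletion (adjusted p = 0.267 and 0.0495 by limma) but passed after dsMi-2 with the block (adjusted p = 0.0013, limma). atilla, a defining lamellocyte marker, was below the test minimum. It was at 0 in all 3 dsEGFP libraries, at 5.34 to 19.3 in dsUsh and at 0 to 1.94 in dsMi-2, on at most 17 reads per library. The 3 crystal cell markers summed to 7.47 to 48.9, 9.6 to 73.9 and 2.92 to 44.8. Among them lz was at 5.21, 55.7 and 5.34 in dsUsh libraries 1 to 3 against 0, 1.04 and 0 in dsEGFP. Its log2 fold change of 3.36 ± 0.89 (SE) missed the threshold (adjusted p = 0.0188 by limma). It passed with the block (adjusted p = 0.00208, limma). PPO1 was not called (adjusted p = 0.703 by limma), and PPO2 was below the test minimum. The 4 fat body markers summed to at most 6.82 in any library of the table, with Lsp1alpha and Lsp2 at 0 throughout. Of the neural markers, the glial repo was at most 3.41, whereas the neuronal elav lay between 263 and 611 in every library of the table. The part of these cell type markers in the changes of the Nimrod genes was not tested.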

How the data were processed

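RNA of S2 cells (S2[Cas9] in the methods of RNA interference) was sequenced as 17 stranded mRNA libraries. The 4 ChIP-seq samples were not used here. The authors aligned the reads with STAR, counted them per gene with featureCounts and divided by DESeq2 size factors. The deposited values are therefore a normalised signal per gene (normalised counts). The genome build and strand setting of the RNA-seq counting are not given in the sources used here. The methods name 3 independent transfections, while the Ush-B table has 4 libraries per group, so p-values may measure partly technical spread. The authors' deposited comparison tables (log2 fold changes and p-values) were not used.

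All values were whole multiples of a step per library (100%, tolerance 0.05), and the reads were recovered for edgeR 4.0.16 and DESeq2 1.42.0 as alternatives. The main test was limma 3.58.1 (R 4.3.3) on log2(normalised count + 1) with a trended moderation, two-sided, for genes with a mean of at least 5, with Benjamini-Hochberg adjustment. It used a fit of 9 libraries at 0.01 (first table) or of 8 at 0.05 (Ush-B table), the thresholds of the study. It was also run on simulated counts with known changes. These had 1 setting of the spread for all genes and no differences shared by replicates, so they do not cover the spread between the real libraries. In the first table same-numbered libraries deviated together (r = 0.239 to 0.569 in 9 pairs), so the replicate number was fitted as a block too. Other alternatives changed the pseudocount, filter, scaling, moderation, threshold and libraries, and the subsets of replicates 1 and 2 or 3 and 4 were added after seeing the data.

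The members and gene lists were chosen with earlier results of these data known. Genes named were all members, NimB3 and NimC3, ush and Mi-2, overlapping genes, per list at most 4 rises and 4 falls past the threshold, and the 5 genes most like eater. Others are marked, and the cell type markers outside this rule (Hml, srp, lz, PPO1, PPO2, PPO3, atilla, repo and elav among them) come from fixed lists but were named after their values were seen. Names were looked up in a Release 6 gene table, which held 17682 of 17737.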

Additional observations from a re-analysis of the deposited data

Results flagged for a closer look

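NimC4 responded differently to the 2 depletions, with a log2 fold change of -2.37 between dsUsh and dsMi-2 in a direct test. In the Ush-B table, 4 of 20 groups of 4 libraries had a library whose gap to the other 3 exceeded the limit of Dixon's test. The limit assumes continuous values and has a chance rate of about 1 in 20, which does not apply to counts near 0, where a single read can exceed it. NimB2 was at 22.39 normalised counts in dsEGFP library 1, against at most 8.11 in the others. NimC1 was at 6.11 in the same library and at 0 in the others. NimB4 (1.19 in dsUsh-B library 3) and NimC2 (1.06 in dsUsh-B library 1) were flagged on 1 read each. The wide range of eater in the same controls was not among these. Its values were high in libraries 1 and 2 and low in libraries 3 and 4, and a rule for 1 library apart from the other 3 cannot flag such a division.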

How the results depend on the processing

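The calls of eater (dsUsh and dsMi-2 against dsEGFP) and NimC4 (dsUsh against dsEGFP and against dsMi-2) held in all 21 alternative fits of the first table. Over these, the adjusted p of eater was at most 0.000753 and 0.00685, and that of NimC4 at most 0.0012 and 0.00201. Of 417 alternative values of single members, 398 kept their direction and side of the threshold, 6 newly passed and 13 changed sign. Of the 6 that newly passed, 2 were NimB5 after dsMi-2, which has the limit given next. For dsMi-2 against dsEGFP, 1 Nimrod gene passed in the main analysis, 2 with DESeq2, 3 with the replicate block and 3 at a threshold of 0.05. With the block and at 0.05 alike, 1 of the 3 is NimB5. It entered the test through the dsMi-2 libraries, so its passing is no support for a rise in them. With the block, 3 passed for dsUsh against dsEGFP and 1 for dsUsh against dsMi-2. The counts over all genes became 2601, 1187 and 3231 with the replicate block (dsUsh, dsMi-2 and dsUsh against dsMi-2), 2679, 1275 and 3345 at a threshold of 0.05, and 1089 for dsMi-2 with DESeq2. Without 1 library they ranged from 1008 (without dsUsh replicate 3) to 1395, from 292 to 587 and from 1387 (without dsUsh replicate 3) to 2183. drpr, at -0.01 after dsUsh, ranged from -0.0914 to 0.0315 without 1 library. NimB2, at -0.57 between dsUsh and dsMi-2, ranged from -0.97 to 0.0058. Quantile normalisation moved the median gene to -0.19 (dsUsh) and -0.12 (dsUsh against dsMi-2), and drpr to -0.15 after dsUsh.

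In the Ush-B table the number of genes called was 91 with DESeq2 and 0 with edgeR, a mean of at least 20, moderation without trend, a pseudocount of 0.5, upper-quartile scaling, a threshold of 0.01, the replicate block, a term for replicates 1 and 2 against 3 and 4, or either subset of replicates. It ranged from 0 to 4 without 1 library. NimB2, at 0.06, was at -0.0822 with DESeq2, -0.0858 with edgeR, -0.0241 with quantile normalisation, -0.75 in replicates 1 and 2, and between -0.17 and 0.44 without 1 library. The replicate numbers were not taken as pairs here, since same-numbered libraries correlated at 0.557, 0.66, -0.0486 and 0.138. With the block 0 Nimrod genes passed, as without it. For dsUsh-B replicate 3 the best correlation was with dsEGFP replicate 4 (0.762), and for dsUsh-B replicate 4 it was with dsEGFP replicate 3 (0.517). The causes of these differences were not tested. With at most 14 reads on NimA, NimB1, NimB4, NimC1 and NimC2 in any library, depth limits what can be seen of them.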

Other observations

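Between the NimC2 and NimC3 genes of the 2L cluster lies bgm, which encodes an acyl-CoA synthetase and was picked out after its values were seen. It averaged 29.5 normalised counts in dsEGFP, 633 after dsUsh and 190 after dsMi-2, with adjusted p-values of 4.21e-05 and 0.00193 by limma. In the Ush-B experiment it averaged 61.1 in dsEGFP and 35.4 after dsUsh-B (adjusted p = 0.574 by limma). Of the 23 genes from NimA to NimC4 in the Release 6 table, 8 are members of the list followed here.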
